A study of Mus musculus with 24 samples.

Results

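Interferon-stimulated genes are the genes that cells switch on when an interferon binds its receptor, and 39 of them are described here in mouse whole lung. They were taken by gene symbol from the deposited table of expected counts. All 39 were found among its 54532 genes, and all 39 were among the 16935 genes that passed the filter on low counts. The lungs came from young male C57BL6/j mice that spent 2 days in normoxia or hypoxia. During those days they were given vehicle or, at a daily 50 mg per kg of body weight, the senolytic compound ABT-263. This drug, navitoclax, inhibits the survival proteins BCL-2, BCL-XL and BCL-W. The 4 groups (normoxia vehicle, normoxia ABT-263, hypoxia vehicle, hypoxia ABT-263) hold 6 libraries each, and normoxia vehicle is the control. The labels name no transgene, give no oxygen fraction and number no animals. The replicate numbers used here therefore only name libraries, and p-values measure the spread between libraries, which may in part be technical.

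Type I interferons are made by cells that sense viral nucleic acid. They act through the kinases JAK1 and TYK2 on transcription factors that include STAT2 and IRF9 and that bind the interferon-stimulated response element in the promoters of target genes. Interferon gamma, the product of NK and T cells, acts through the gamma-activated site in the promoters of its targets. Many target genes respond to both kinds of interferon, and some are also switched on through IRF3 or NF-kappaB without any interferon. The 39 genes were arranged by role. They comprise the IFIT family (4 genes), the ISG15 system (2), the OAS family with the kinase PKR (6), the Mx GTPases (2), other antiviral effectors (7), the RNA sensors (3), the transcription factors (3), other genes induced by type I interferon (5) and the GTPases induced most strongly by interferon gamma (7).

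Promoters of the genes held the response element far more often than promoters at large. RefSeq promoters of build GRCm38.p6, each 250 bases before to 50 bases after a gene's start, were given for 29 of the 39 genes as 35 promoters. The letters GAAANNGAAA, searched on both strands, stood in 19 of the 35 (54.3%, Wilson 95% interval 38.2 to 69.5%) and in 3.44% of all 32851 promoters of that length. Read only on the strand of the gene, the shares were 22.9% and 1.74%. The gamma-activated site, searched as TTCNNNGAA, stood in 8 of the 35 (22.9%) and in 8.30% of all promoters. Of the 28 matches to the response element, 23 began within the 200 bases before the start. A match in these windows is a description and not a shown binding site.

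Printed here are the promoters of the 4 genes with the smallest p-values among those that passed the test in some comparison and hold a match. Each runs 5′ to 3′ along the gene from 150 bases before its start over the first 30 transcribed bases, with the matched letters in capitals. Rsad2 (chr12:26456423-26456602, minus strand) holds its match 120 bases before the start, Ddx58 (chr4:40239796-40239975, minus strand) just inside the transcript. Trim30a has 2 RefSeq promoters (chr7:104446096-104446275 and chr7:104465164-104465343, minus strand) with the same matched letters at different distances from the start. Bst2 (chr8:71537443-71537622, minus strand) holds 2 overlapping matches.
Rsad2: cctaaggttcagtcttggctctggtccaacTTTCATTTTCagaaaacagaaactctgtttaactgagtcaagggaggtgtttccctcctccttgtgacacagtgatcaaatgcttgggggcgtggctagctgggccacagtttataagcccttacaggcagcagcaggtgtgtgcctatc
Ddx58: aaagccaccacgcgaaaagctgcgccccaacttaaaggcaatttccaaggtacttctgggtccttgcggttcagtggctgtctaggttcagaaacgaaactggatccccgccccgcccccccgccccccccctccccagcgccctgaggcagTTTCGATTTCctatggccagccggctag
Trim30a, downstream start: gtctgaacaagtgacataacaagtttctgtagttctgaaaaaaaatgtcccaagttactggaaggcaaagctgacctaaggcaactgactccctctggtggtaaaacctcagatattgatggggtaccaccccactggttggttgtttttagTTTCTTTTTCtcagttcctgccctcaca
Trim30a, upstream start: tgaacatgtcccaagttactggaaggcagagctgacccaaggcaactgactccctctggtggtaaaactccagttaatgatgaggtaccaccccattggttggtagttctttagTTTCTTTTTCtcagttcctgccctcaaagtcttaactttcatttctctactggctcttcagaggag
Bst2: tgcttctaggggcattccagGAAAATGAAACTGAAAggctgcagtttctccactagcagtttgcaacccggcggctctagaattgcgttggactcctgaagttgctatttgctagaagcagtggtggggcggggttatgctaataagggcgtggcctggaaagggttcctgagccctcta
Rsad2 rose and Trim30a fell in hypoxia, and both hold the element. Of the 9 genes that passed the test in some comparison and have a promoter in the table, 5 hold it, against 13 of the 20 others.

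Depth, as the sum of expected counts, lay between 12643484 and 17295233 in every library. Levels are CPM (counts scaled by TMM-corrected depth). Within a group the correlation of log2 CPM between libraries was 0.966 to 0.989. Markers of lung epithelium had a count in every library for 8 of 8 genes, as did those of capillary endothelium (8 of 8) and alveolar macrophages (8 of 8), so defining markers of the labelled tissue were present throughout.

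1 library stood apart from all others, is called the outlying library, and is described before any comparison. In normoxia ABT-263 replicate 5, 38 of the 39 genes were higher than in the other 5 libraries of its group, and 35 were higher than in all 23 other libraries. Of all 16935 tested genes, 17.5% and 4.64% were. The genes lay at a median of 2.64 times the median of the other 5, whereas all tested genes lay at 0.999 times. Its summed level of the 39 genes was 3374 CPM, and the other 23 libraries ran from 1098 to 1700 CPM. Its total count of 16519862 lay within the range of the others.

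The excess in that library was uneven across roles. The interferon gamma GTPases, which guard against intracellular pathogens by coating their vacuoles, lay at a median of 6.46 times, with Igtp at 11.8 times (299 CPM against a median of 25.4) and Iigp1 at 10.7 times (289 CPM against 26.9). Gbp5, a guanylate-binding protein, stood at 73.5 CPM against 7.55. Zbp1, a sensor of Z-form nucleic acid that can start necroptosis, stood at 62.8 CPM against 6.53. The IFIT family lay at a median of 2.60 times, the OAS genes with PKR at 3.01, the Mx genes at 2.27 and the RNA sensors at 1.53. Irf7, the factor that amplifies type I interferon production, stood at 90.9 CPM against 23.7. Isg20, an exonuclease that degrades viral RNA, was the exception at 1.06 times.

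**Figure D1:**
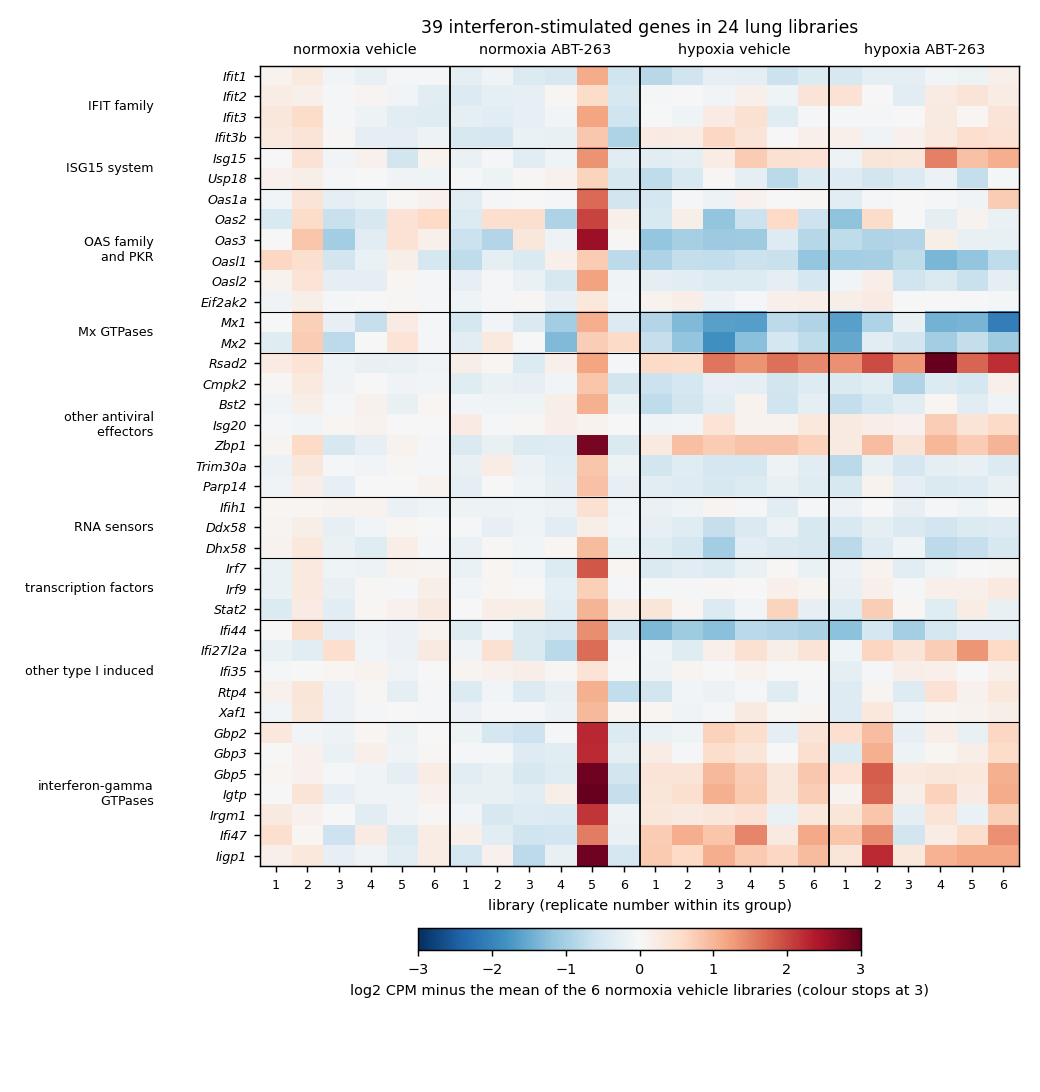
Log2 CPM of each gene in each of the 24 libraries, minus the mean of the 6 normoxia vehicle libraries; rows are genes by role, columns are libraries by group. Normoxia ABT-263 replicate 5 is the column that is high in 38 of 39 genes of its group, and Rsad2 is high across both hypoxia groups.

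Markers of NK cells, the main source of interferon gamma beside T cells, moved with the genes in that library. All 10 NK markers were above all 23 other libraries, at a median of 6.86 times, and their summed level was 590 CPM against at most 90.6 CPM in the other 5. Gzma, a granzyme, had 5793 counts there and 2246 over the other 5 together. T cell markers were above the other 5 libraries for 9 of 10 genes (median 2.40 times; summed 196 CPM against at most 82.6), and classical monocyte markers for 6 of 8 (2.45 times). Neutrophil markers were above for 6 of 7 (1.71 times; summed 311.3 CPM against at most 214.5) and patrolling monocyte markers for 4 of 7 (1.90 times). No marker of the NK or T cell lists was at 0 in any library. Ifng itself had 39 counts there and 11 over the other 5 libraries. B cell markers (0 of 10; median 0.771 times), those of plasmacytoid dendritic cells (0 of 9; 0.995 times) and those of capillary endothelium (0 of 8; 0.917 times) were not above the other 5. In bulk tissue, more cells of a type and more RNA per cell cannot be told apart. The part of these cells in the level of the 39 genes was not tested. Counts of called genes among the 39 are given with this library and without it, and other values also without it where a call or a count changed. The library was picked out by its high levels of these genes. Leaving it out therefore raises hypoxia against normoxia under ABT-263 for most of them.

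**Figure D2:**
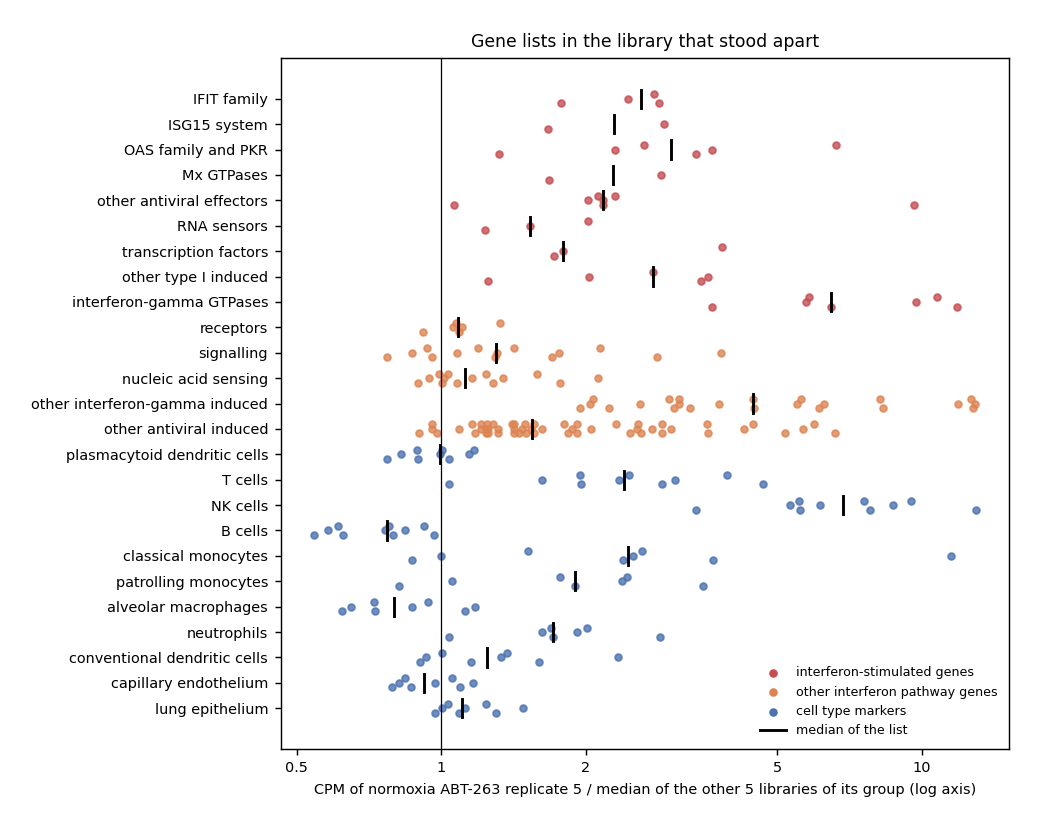
Level of each listed gene in normoxia ABT-263 replicate 5 divided by the median of the other 5 libraries of its group, on a log axis, 1 point per tested gene and 1 row per list, with a bar at the median. The interferon gamma GTPases (6.46 times) and the NK cell markers (6.86 times) lie farthest to the right, and B cell markers (0.771 times) lie left of 1.

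Type I and type III interferon ligands were near the floor of detection. The 20 type I and type III ligand genes summed to 22 counts over all 24 libraries, 13 of them had no count in any library, and none had more than 3 counts in 1 library. Ifnb1, interferon beta, had 4 counts in all. Ifng had 37 counts in normoxia vehicle, 50 in normoxia ABT-263, 15 in hypoxia vehicle and 12 in hypoxia ABT-263. Ifng had a count in 23 of the 24 libraries, and 39 of its counts came from the outlying library. No ligand gene passed the filter on low counts, so none was tested. A change in the type I and type III ligands was not detectable at this depth.

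Per base of exon, the genes spanned a wide range of levels in control lung. Ifi27l2a, a small membrane protein of uncertain function, led at 214 CPM per kilobase (mean of 6 libraries), followed by Bst2, or tetherin, which holds budding virions on the cell surface, at 127. Ifi35 followed at 49.3 and Isg15 at 28.5. The lowest were Ifi47 at 0.250 and Oas3 at 0.366. Ifi47 had only 5 to 28 counts per library, so its values carry large counting error. By the GENCODE M21 annotation, 5 of the 39 genes overlap another gene on the same strand and 11 overlap 1 on the opposite strand, so their counts are less certain. Over all 24 libraries the genes' median biological coefficient of variation was 26.6%, against 15.0% over all tested genes. The gap was widest in normoxia ABT-263, which holds the outlying library. The median SD of log2 CPM was 0.623 there, against 0.198 over all tested genes. It was 0.226 against 0.175 in normoxia vehicle, 0.225 against 0.231 in hypoxia vehicle and 0.331 against 0.259 in hypoxia ABT-263.

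The comparison of hypoxia with normoxia under vehicle asks what 2 days of low oxygen do to these genes. With all libraries, 2 genes rose and 8 fell; of all tested genes, 18.9% rose and 16.8% fell. The 2 that rose were Rsad2 and Ifi47, and the 8 that fell were Mx1, Mx2, Ifi44, Oasl1, Dhx58, Usp18, Trim30a and Ddx58. Their median log2 fold change over all 39 was 0.006, beside -0.04 over all tested genes. Without normoxia ABT-263 replicate 5, which belongs to neither group compared but widens the shared estimate of spread, 6 rose and 14 fell (19.0% and 16.8% of all tested genes), with fold changes that were nearly the same. The added calls were Zbp1, Gbp5, Igtp and Iigp1 among the higher and Ifit1, Oas3, Oasl2, Cmpk2, Bst2 and Parp14 among the lower. As shares of the 39 genes these are 5.13% higher and 20.5% lower with all libraries, and 15.4% and 35.9% without that library. The lower calls were near the background with all libraries, and a control library bore on them, since without normoxia vehicle replicate 2 there were 1 higher and 5 lower of the 39. The call of Ifi47 was lost in 15 of the 24 fits that each left out 1 library.

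Under ABT-263, which uses other libraries in both arms, 2 genes rose and 10 fell with all libraries (21.6% and 19.4% of all tested genes). Without normoxia ABT-263 replicate 5, 16 rose and 6 fell (21.4% and 18.5%), which is 41.0% and 15.4% of the 39. The median log2 fold change of the 39 genes was -0.195 with normoxia ABT-263 replicate 5 and 0.154 without it. Leaving out hypoxia ABT-263 replicate 4 in place of it left 1 gene called higher. 7 genes passed the test in the same direction in both hypoxia comparisons and in both fits. Rsad2 rose, and Mx1, Mx2, Oasl1, Ddx58, Dhx58 and Trim30a fell. The vehicle calls of Trim30a and Dhx58 were lost in 7 and 2 of the 24 fits that each left out 1 library. No gene was called in opposite directions by any of these 4 tests, and 9 genes (Oas1a, Oas2, Eif2ak2, Ifih1, Irf7, Irf9, Stat2, Ifi35 and Xaf1) were called by none. With all libraries, 9 calls were shared by both comparisons, 90% of the vehicle calls and 75% of the ABT-263 calls. For all tested genes those shares were 78.1% and 68.0%. In the fit without the outlying library 12 calls were shared, 60% and 54.5% of the calls, beside 75.7% and 67.7% for all tested genes, so the genes' shares went from above those of all genes to under them.

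**Figure D3:**
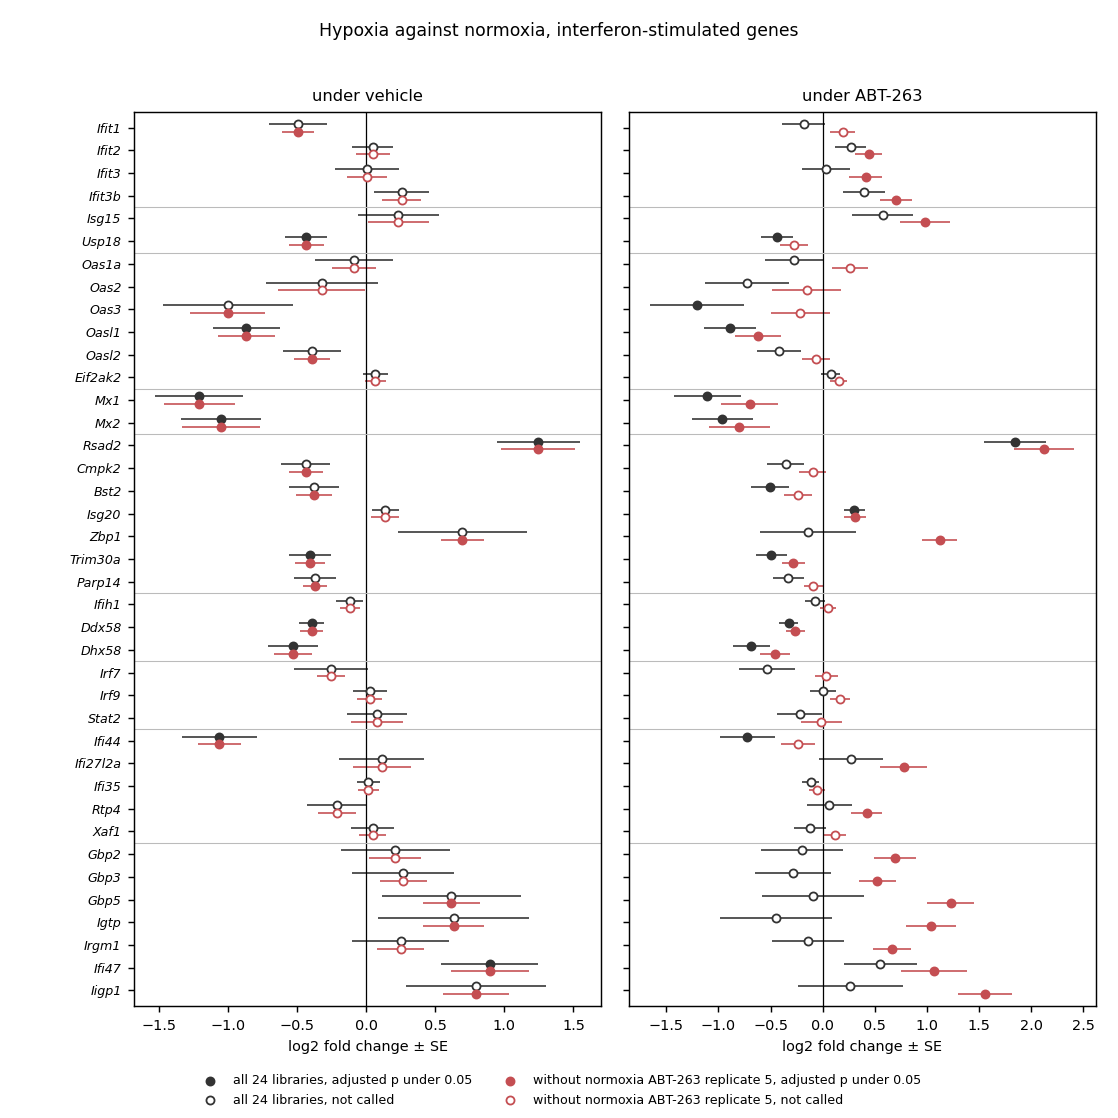
Log2 fold change of hypoxia against normoxia with its SE for the 39 genes, under vehicle (left) and under ABT-263 (right), with all 24 libraries (dark) and without normoxia ABT-263 replicate 5 (red); filled points have an adjusted p under 0.05. Rsad2 lies at 1.24 and 1.84 with all libraries, and the interferon gamma GTPases move to the right in the right panel once the library is left out.

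Rsad2 (chr12:26442746-26456452, minus strand, GRCm38) encodes viperin, an enzyme that makes a chain-terminating nucleotide and so blocks viral RNA synthesis. It ran from 9.74 to 15.2 CPM in normoxia vehicle (median 10.5) and from 8.64 to 25.9 in normoxia ABT-263 (median 12.3). In hypoxia it ran from 16.7 to 36.1 CPM under vehicle (median 30.1) and from 28.7 to 106 under ABT-263 (median 41.3). All hypoxia libraries lay above all normoxia libraries under vehicle, and likewise under ABT-263. The log2 fold change was 1.24 (SE 0.30, adjusted p = 0.00234) under vehicle and 1.84 (SE 0.30, adjusted p = 4.74e-05) under ABT-263, by edgeR's quasi-likelihood test with Benjamini-Hochberg adjustment. When the outlying library was left out they were 1.25 (SE 0.27) and 2.12 (SE 0.29).

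Cmpk2, the nucleotide kinase that feeds viperin, lies next to Rsad2 on chromosome 12 and is read in the opposite direction from a start close by. It did not rise with its neighbour. Its range was 32.5 to 43.2 CPM in normoxia vehicle (median 34.01) and 22.7 to 29.9 CPM in hypoxia vehicle (median 25.6), so the groups did not overlap in the downward direction. Its log2 fold change was -0.44 (SE 0.18, adjusted p = 0.0571) with all libraries and -0.44 (SE 0.12, adjusted p = 0.00723) without normoxia ABT-263 replicate 5. Under ABT-263 it was -0.35 (SE 0.18, adjusted p = 0.112) and, without that library, -0.10 (SE 0.13, adjusted p = 0.582).

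The Mx GTPases, which trap incoming viral nucleoproteins, fell in hypoxia in both comparisons, at low counts. C57BL6 mice are known to carry defective Mx alleles, so their transcripts mark induction and not a working protein. Mx1 ran from 3.48 to 9.23 CPM in normoxia vehicle (median 5.54) and from 1.79 to 3.26 in hypoxia vehicle (median 2.62), with no overlap. Its log2 fold change was -1.21 (SE 0.32, adjusted p = 0.00435). Under ABT-263, Mx1 ran from 2.70 to 11.9 CPM in normoxia (median 4.18) and from 1.34 to 4.81 in hypoxia (median 2.11), with overlap. The log2 fold change there was -1.11 (SE 0.32, adjusted p = 0.00819), and -0.70 (SE 0.27, adjusted p = 0.0446) without normoxia ABT-263 replicate 5.

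Its neighbour Mx2 ran from 2.78 to 8.06 CPM in normoxia vehicle (median 4.69) and from 1.33 to 3.31 in hypoxia vehicle (median 2.44). In the ABT-263 groups Mx2 ran from 1.91 to 7.97 CPM in normoxia (median 5.30) and from 1.64 to 3.74 in hypoxia (median 2.61). The log2 fold changes were -1.05 (SE 0.29, adjusted p = 0.00637) under vehicle and -0.96 (SE 0.29, adjusted p = 0.0106) under ABT-263, the groups overlapping in both.

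The OAS proteins make or relate to the oligoadenylates that switch on RNase L, which degrades viral RNA. Oasl1, an OAS-like protein that in mouse restrains Irf7 translation, ran from 2.45 to 5.47 CPM in normoxia vehicle (median 3.58) and from 1.598 to 2.29 in hypoxia vehicle (median 2.15), without overlap. Under ABT-263 it ran from 2.07 to 6.05 CPM in normoxia (median 2.80) and from 1.38 to 2.12 in hypoxia (median 1.77), with a slight overlap. Its log2 fold changes were -0.87 (SE 0.24, adjusted p = 0.00662) and -0.89 (SE 0.25, adjusted p = 0.00628). Oas3 was called lower under ABT-263 with all libraries (log2 fold change -1.21, adjusted p = 0.0354), but not without normoxia ABT-263 replicate 5 (-0.22, adjusted p = 0.566). Under vehicle the reverse held, with -1.002 in both fits and an adjusted p of 0.101 with that library and 0.00554 without it. Oas1a, Oas2 and the kinase gene Eif2ak2 passed the test in neither comparison.

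Of the 3 RNA sensors, 2 fell in both comparisons. Ddx58 (chr4:40203773-40239828, GRCm38) encodes RIG-I, which detects viral RNA with a free triphosphate end. Its range was 37.0 to 49.5 CPM in normoxia vehicle (median 44.7), 35.1 to 49.6 in normoxia ABT-263 (median 40.6), 26.9 to 38.9 in hypoxia vehicle (median 33.1) and 29.2 to 36.5 in hypoxia ABT-263 (median 32.5). The hypoxia libraries were the lower ones, with overlap at the edges. The log2 fold changes were -0.40 (SE 0.09, adjusted p = 0.00133) and -0.32 (SE 0.09, adjusted p = 0.0062).

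Dhx58 encodes LGP2, a regulator of the other sensors, and overlaps an antisense gene, so its counts are uncertain if strand was ignored. It ran from 7.14 to 11.5 CPM in normoxia vehicle (median 9.49), 8.10 to 17.7 in normoxia ABT-263 (median 9.09), 4.46 to 7.29 in hypoxia vehicle (median 6.75) and 5.27 to 8.398 in hypoxia ABT-263 (median 6.19). It fell by 0.53 (SE 0.18, adjusted p = 0.0218) under vehicle and by 0.68 (SE 0.18, adjusted p = 0.00375) under ABT-263 on the log2 scale. Ifih1, which encodes the sensor MDA5, had log2 fold changes of -0.12 (adjusted p = 0.35) and -0.07 (adjusted p = 0.569).

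Ifi44, a gene of uncertain mechanism that is widely used as a read-out of type I interferon, fell in both comparisons with all libraries. It ran from 8.78 to 14.9 CPM in normoxia vehicle (median 10.2) and from 4.17 to 6.07 in hypoxia vehicle (median 5.29), without overlap, a log2 fold change of -1.06 (SE 0.27, adjusted p = 0.0033). Under ABT-263 it ran from 7.31 to 28.1 CPM in normoxia (median 8.10) and from 4.57 to 8.67 in hypoxia (median 7.44), with overlap. There it was -0.72 (SE 0.27, adjusted p = 0.0323) with all libraries and -0.23 (SE 0.16, adjusted p = 0.264) without normoxia ABT-263 replicate 5. The test of the difference between the comparisons gave 0.34 (SE 0.38, adjusted p = 0.991), and 0.83 (SE 0.23, unadjusted p = 0.0012, adjusted p = 0.968) without that library.

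**Figure D4:**
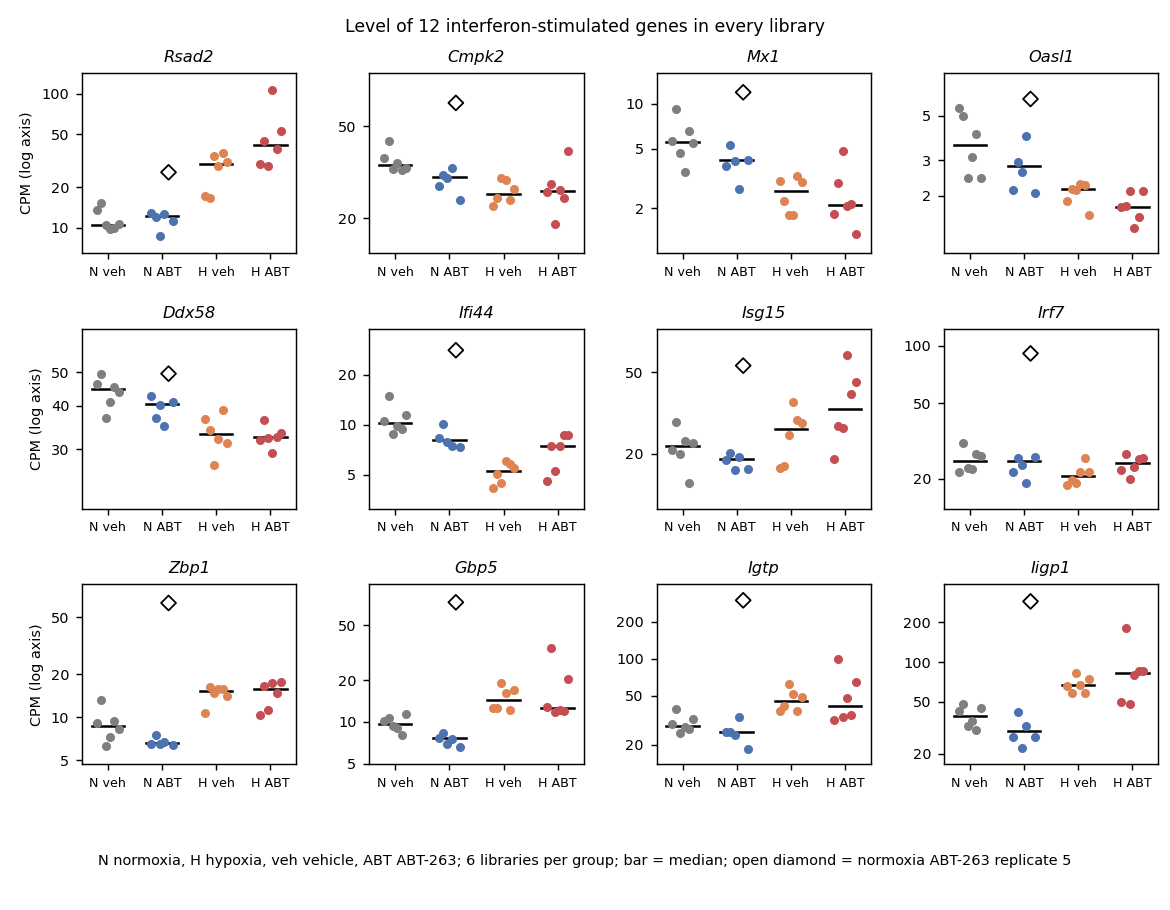
CPM on a log axis of 12 of the genes in every library, by group, with a bar at each group's median; the open diamond is normoxia ABT-263 replicate 5. Rsad2 is higher in both hypoxia groups, Mx1, Oasl1 and Ddx58 are lower, and the open diamond lies at or above every other library for Igtp (299 CPM), Iigp1 (289 CPM) and Irf7 (90.9 CPM).

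Usp18, which cuts ISG15 off its targets and holds the type I receptor in check, fell by 0.44 in both comparisons on the log2 scale (adjusted p = 0.0276 and 0.024). In the fit without the outlying library the second of these was -0.28 (adjusted p = 0.1). The vehicle call was lost in 4 of 24 fits that each left out 1 library (adjusted p up to 0.0655) and without the filter (adjusted p = 0.0766). Trim30a, a mouse TRIM protein that dampens inflammatory signalling, fell by 0.41 (adjusted p = 0.0367) under vehicle and by 0.49 (adjusted p = 0.0116) under ABT-263. The vehicle call was lost without the filter on low counts (adjusted p = 0.0729) and in 7 of 24 fits that each left out 1 library (adjusted p up to 0.101), and the ABT-263 value was -0.28 (adjusted p = 0.0471) without the outlying library. Bst2 fell by 0.50 (adjusted p = 0.0312) under ABT-263 with all libraries and had -0.24 (adjusted p = 0.16) without that library.

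Isg20 rose by 0.30 on the log2 scale under ABT-263 (SE 0.10, adjusted p = 0.0163). It ran from 42.2 to 48.2 CPM in normoxia vehicle (median 44.4), 43.0 to 53.6 in normoxia ABT-263 (median 47.2), 41.7 to 59.7 in hypoxia vehicle (median 48.4) and 48.8 to 75.4 in hypoxia ABT-263 (median 56.3). The groups overlapped, and under vehicle its value was 0.14 (adjusted p = 0.288). The call under ABT-263 was lost in 1 of the 24 fits that each left out 1 library. That fit left out hypoxia ABT-263 replicate 4 (adjusted p = 0.0509).

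The calls of the interferon gamma GTPases turned on the library that stood apart. With all libraries, 1 of the 7 rose under vehicle (Ifi47, log2 fold change 0.89, adjusted p = 0.048) and 0 of 7 were called under ABT-263 by edgeR, 0 of them at an unadjusted p under 0.05. Once the outlying library was left out, 4 of 7 rose under vehicle and 7 of 7 under ABT-263, beside 19.0% and 21.4% of all tested genes. Median log2 fold changes were then 0.617 and 1.041, beside -0.04 and -0.008 over all tested genes. With all libraries they were 0.616 and -0.137. These genes were high in the library picked out, so its removal raises their ABT-263 values, and these calls are a description. Hypoxia ABT-263 replicate 2, the highest of its group for all 7, stayed in. Ifi47 overlaps another gene on its own strand, as does Igtp, so their counts are less certain. Neither had a fractional expected count in any library.

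Iigp1 encodes the vacuole-attacking GTPase IRGA6. It ran from 30.3 to 47.8 CPM in normoxia vehicle (median 38.96) and from 58.1 to 82.0 in hypoxia vehicle (median 66.3), without overlap. In normoxia ABT-263 the 5 other libraries ran from 22.2 to 41.6 CPM, beside 289 in replicate 5, and hypoxia ABT-263 ran from 48.1 to 181 (median 82.4). Its log2 fold change was 0.79 under vehicle (adjusted p = 0.234 with all libraries, 0.0111 without replicate 5). Under ABT-263 it was 0.27 (adjusted p = 0.697) with all libraries and 1.56 (SE 0.26, adjusted p = 6.6e-05) without replicate 5.

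Igtp, an IRG protein that regulates the vacuole-attacking members, ran from 24.9 to 38.71 CPM in normoxia vehicle (median 28.5) and from 37.7 to 62.2 in hypoxia vehicle (median 45.2), overlapping slightly. In normoxia ABT-263 the 5 other libraries ran from 18.5 to 33.4 CPM, and hypoxia ABT-263 ran from 31.9 to 99.1 (median 41.3). Gbp5 ran from 8.002 to 11.4 CPM in normoxia vehicle (median 9.72) and from 12.2 to 19.1 in hypoxia vehicle (median 14.4), without overlap. In normoxia ABT-263 its 5 other libraries ran from 6.57 to 8.28 CPM, and hypoxia ABT-263 ran from 11.8 to 34.1 (median 12.62). In hypoxia ABT-263 the highest library of all 7 GTPases was replicate 2, where NK markers summed to 59.9 CPM beside a group median of 58.97. Neutrophil markers summed to 331 CPM there, the highest of the group (median 242). As a median log2 difference from the median of the group's other libraries, they lay at 0.578 in replicate 2 and 0.573 in replicate 1. The GTPases lay at 1.019 and -0.059 in these libraries. The part of neutrophils in these levels was not tested.

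Zbp1 followed the GTPases. It ran from 6.26 to 13.3 CPM in normoxia vehicle (median 8.75) and from 10.7 to 16.2 in hypoxia vehicle (median 15.2), with overlap. In normoxia ABT-263 the 5 other libraries ran from 6.42 to 7.51 CPM, and hypoxia ABT-263 ran from 10.4 to 17.5 (median 15.7). With the outlying library removed its log2 fold changes were 0.70 (SE 0.15, adjusted p = 0.00103) and 1.12 (SE 0.17, adjusted p = 1.66e-05). With it they were 0.70 (adjusted p = 0.257) and -0.14 (adjusted p = 0.827). Zbp1 was high in the library picked out, so removing that library raises the ABT-263 value, and these calls are a description.

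Ranges that did not overlap were counted as a description without a model. Under vehicle, 3 genes were higher in every hypoxia library than in every normoxia library (Gbp5, Iigp1, Rsad2), as were 10.9% of tested genes, and 5 were lower (Cmpk2, Ifi44, Ifit1, Mx1, Oasl1), as were 6.93%. Under ABT-263, Rsad2 was the 1 gene higher and 0 were lower, beside 9.16% and 5.48% of tested genes. After removal of the outlying library, 6 genes were higher (Gbp5, Ifit3, Ifit3b, Iigp1, Rsad2, Zbp1) and 0 lower, beside 10.3% and 6.33%.

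The IFIT proteins bind viral RNA that lacks the cap marks of host RNA. None of the 4 was called with all libraries by edgeR. At an unadjusted p under 0.05 there was 1 under vehicle and 0 under ABT-263. Ifit1 ran from 19.8 to 28.0 CPM in normoxia vehicle (median 22.2), 15.3 to 49.5 in normoxia ABT-263 (median 18.2), 12.9 to 19.5 in hypoxia vehicle (median 16.4) and 16.6 to 25.7 in hypoxia ABT-263 (median 19.9). Ifit2 ran from 13.2 to 19.1 CPM in normoxia vehicle (median 16.5), 11.8 to 23.8 in normoxia ABT-263 (median 13.6), 15.1 to 21.3 in hypoxia vehicle (median 16.2) and 13.1 to 22.1 in hypoxia ABT-263 (median 19.2). When the outlying library was left out, Ifit1 had a log2 fold change of -0.49 under vehicle (adjusted p = 0.00167) and 0.19 under ABT-263 (adjusted p = 0.212). Ifit2, Ifit3 and Ifit3b were then called higher under ABT-263, by 0.44, 0.41 and 0.70 (adjusted p = 0.0099, 0.0382 and 0.000936). All 4 genes were high in the library picked out, so its removal raises their ABT-263 values, and these calls are a description. Ifit3 and Ifit3b are close copies, but neither had a fractional expected count in any library, so no split of reads between them was seen. Fractional counts in 12 or more libraries were found for 5 of the 39 genes, namely Usp18, Eif2ak2, Dhx58, Irf9 and Ifi35.

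Isg15, the ubiquitin-like modifier, ran from 14.4 to 28.6 CPM in normoxia vehicle (median 21.7) and from 16.6 to 53.8 in normoxia ABT-263 (median 18.9). In hypoxia it ran from 17.03 to 35.6 CPM under vehicle (median 26.5) and from 18.9 to 60.4 under ABT-263 (median 33.2). All 4 groups overlapped. Its log2 fold change in hypoxia was 0.23 (SE 0.29, adjusted p = 0.562) under vehicle and 0.58 (SE 0.29, adjusted p = 0.115) under ABT-263, or 0.98 (SE 0.24, adjusted p = 0.00226) without normoxia ABT-263 replicate 5. That library was the highest of its group for Isg15, so leaving it out raises the value.

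The 3 transcription factors among the 39 genes (Irf7, Irf9 and Stat2) were not called in either hypoxia comparison. Irf7 ran from 21.7 to 30.8 CPM in normoxia vehicle (median 24.7), 19.0 to 90.9 in normoxia ABT-263 (median 24.8), 18.7 to 25.8 in hypoxia vehicle (median 20.7) and 19.9 to 27.01 in hypoxia ABT-263 (median 24.2). Stat2 ran from 43.7 to 70.0 CPM (median 61.7), 46.3 to 118 (median 66.0), 43.2 to 92.04 (median 57.1) and 44.5 to 97.03 (median 54.6) in the same order. Their groups overlapped throughout.

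Beside the 39 genes, further lists of the pathway were counted against the same background (18.9% higher and 16.8% lower under vehicle, 21.6% and 19.4% under ABT-263). Of 14 sensing genes, 0 rose and 4 fell (28.6%) under vehicle, and 2 (14.3%) rose and 4 fell under ABT-263. In the fit without the outlying library 1 rose and 4 fell under vehicle, and 3 rose and 4 fell under ABT-263. Unc93b1, which brings the endosomal Toll-like receptors to their place, fell by 0.67 (SE 0.09, adjusted p = 2.13e-06) and by 0.61 (SE 0.09, adjusted p = 7.3e-06), with ranges apart in both. Mavs, the adaptor of RIG-I and MDA5, fell by 0.44 (SE 0.07, adjusted p = 1.42e-05) and by 0.37 (SE 0.07, adjusted p = 0.000133). Trim25, which activates RIG-I, fell by 0.36 and 0.24, and the kinase gene Ikbke by 0.58 and 0.65. Once the outlying library was left out these 4 genes kept their calls in both comparisons.

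Of 14 signalling genes, 2 rose (14.3%) and 6 fell (42.9%) under vehicle, and 2 rose and 7 fell (50%) under ABT-263. The counts were the same without the outlying library except for 3 higher under ABT-263. Socs3, a feedback inhibitor of JAK kinases that answers mainly to interleukin-6 type cytokines, rose by 1.18 (SE 0.17, adjusted p = 1.27e-05) and 1.29 (SE 0.18, adjusted p = 4.5e-06). The phosphatase gene Ptpn2, another brake on JAK and STAT proteins, rose by 0.40 (adjusted p = 7.55e-05) and 0.24 (adjusted p = 0.00716). Pias1 fell by 0.33 and 0.32, Irf5 by 0.61 and 0.63, and Tyk2 fell by 0.61 under ABT-263 (adjusted p = 0.00124). Of the 6 receptor genes, Ifngr1 rose by 0.69 (SE 0.07, adjusted p = 1.42e-07) and 0.64 (SE 0.07, adjusted p = 5.13e-07), from 149 to 168 CPM in normoxia vehicle to 224 to 289 CPM in hypoxia vehicle. Ifnlr1, a chain of the type III receptor, fell by 0.35 and 0.34, and Ifngr2 fell by 0.25 under ABT-263 (adjusted p = 0.0363), a call lost without normoxia ABT-263 replicate 5 (adjusted p = 0.0661).

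A further list of 52 tested antiviral genes had 3 higher and 14 lower under vehicle, and 4 higher and 16 lower under ABT-263. These are 5.77% and 26.9%, and 7.69% and 30.8%, of the list. Without normoxia ABT-263 replicate 5 they were 3 higher and 16 lower under vehicle, and 9 higher and 12 lower under ABT-263, where the median log2 fold change went from -0.235 to 0.042. Mov10, a helicase that restricts retroelements, fell by 0.66 and 0.61, and Ifitm1, which hinders viral entry, rose by 0.62 (adjusted p = 0.00172) and 1.03 (adjusted p = 6.68e-06). Under vehicle Slfn9 rose by 1.49 (SE 0.34, adjusted p = 0.00118) and Trim30d, a close relative of Trim30a, fell by 0.50 (adjusted p = 0.00284). Under ABT-263 Samhd1, which drains the nucleotide pool, fell by 0.69 (adjusted p = 0.000309) and the nuclear body gene Sp110 by 0.62 (adjusted p = 0.000549). Of 23 tested further genes induced by interferon gamma, 2 rose and 0 fell under vehicle, namely Tgtp1 (log2 fold change 1.94, SE 0.57, adjusted p = 0.0107) and Ciita (0.63, SE 0.24, adjusted p = 0.0417). Under ABT-263 with all libraries 0 rose and 2 fell (Tap2, -0.44, and Gbp11, -1.13). With the outlying library removed, 3 rose and 1 fell under vehicle, and 9 rose and 0 fell under ABT-263.

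Markers of several cell types moved with hypoxia beside these genes, to be read against 18.9% higher and 16.8% lower of all tested genes under vehicle and 21.6% and 19.4% under ABT-263. Among T cell markers 7 of 10 fell under vehicle and 8 of 10 under ABT-263 (8 and 7 without the outlying library), and their summed level ran from 84.6 to 119 CPM in normoxia vehicle and from 55.1 to 78.4 in hypoxia vehicle. Plasmacytoid dendritic cells, the professional producers of type I interferon, had 4 of 9 tested markers lower under vehicle and 2 of 9 under ABT-263. Under vehicle 7 of the 9 were negative and 2 positive. Summed levels were 196 to 242 CPM in normoxia vehicle and 185 to 216 in hypoxia vehicle. Tcf4 alone held 113 to 133 and 124 to 134 CPM of these sums. Siglech went from 1.52 to 3.19 CPM to 0.299 to 1.215 CPM. In some libraries the markers Cd300c and Klk1 were at 0. Conventional dendritic cell markers fell for 4 of 8 and 5 of 8, from 89.8 to 109 CPM to 56.3 to 69.9 CPM under vehicle. Capillary endothelium had 6 of 8 and 5 of 8 markers lower and 1 and 2 higher (1 and 1 without the outlying library). Classical monocyte markers rose for 4 of 8 in both comparisons and 1 fell under ABT-263 (4 higher and 1 lower under vehicle, and 5 and 0 under ABT-263, without the outlying library), with summed levels going from 438 to 540 CPM to 825 to 1134 CPM under vehicle. NK cell markers were not called under vehicle by edgeR (0 of 10, and 0 at an unadjusted p under 0.05), and 2 of 10 were lower without the outlying library. Under ABT-263, 9 of 10 fell with all libraries and 3 of 10 without normoxia ABT-263 replicate 5. The part of these cell types in the values of the 39 genes was not tested.

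The comparison of ABT-263 with vehicle asks whether the drug moved these genes, in normoxia and in hypoxia. In normoxia 0 of the 39 genes were called by edgeR, beside 0.0354% of tested genes higher and 0.00590% lower. Of the 39, 1 gene had an unadjusted p under 0.05, beside 1154 of all 16935 tested genes. DESeq2 and limma-voom also called 0, with 2 and 0 genes at that unadjusted p. That gene was Igtp, with a log2 fold change of 1.24 (SE 0.55, 95% interval 0.10 to 2.38, adjusted p = 0.687). Without replicate 5 of the treated group it was -0.25 (interval -0.75 to 0.25), and the median over the 39 genes went from 0.138 to -0.226. Again 0 were called (0.0176% and 0.0117% of tested genes). Of the 39 genes, 9 had an unadjusted p under 0.05, beside 1215 of all 17064 tested genes. Of the 39, 36 were negative, beside 8434 of all tested genes (9 and 8187 with all libraries). The library left out was picked for its high levels of these genes, so its removal lowers their values and the counts are a description. The smallest adjusted p was 0.412, for Ifit3b. In that fit NK cell markers were negative for 10 of 10 (median -0.642; 8 at an unadjusted p under 0.05 and 1 called lower), T cell markers for 10 of 10 (-0.397) and B cell markers for 10 of 10 (-0.439). With all libraries those medians were 0.308, -0.17 and -0.503. Ifi35 ran from 79.0 to 90.9 CPM under vehicle (median 86.0) and from 83.9 to 113 under ABT-263 (median 91.8) in normoxia, and from 76.9 to 91.99 (median 85.8) and 68.9 to 98.3 (median 89.1) in hypoxia. Its log2 fold change in normoxia was 0.15 (SE 0.08, adjusted p = 0.79).

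**Figure D5:**
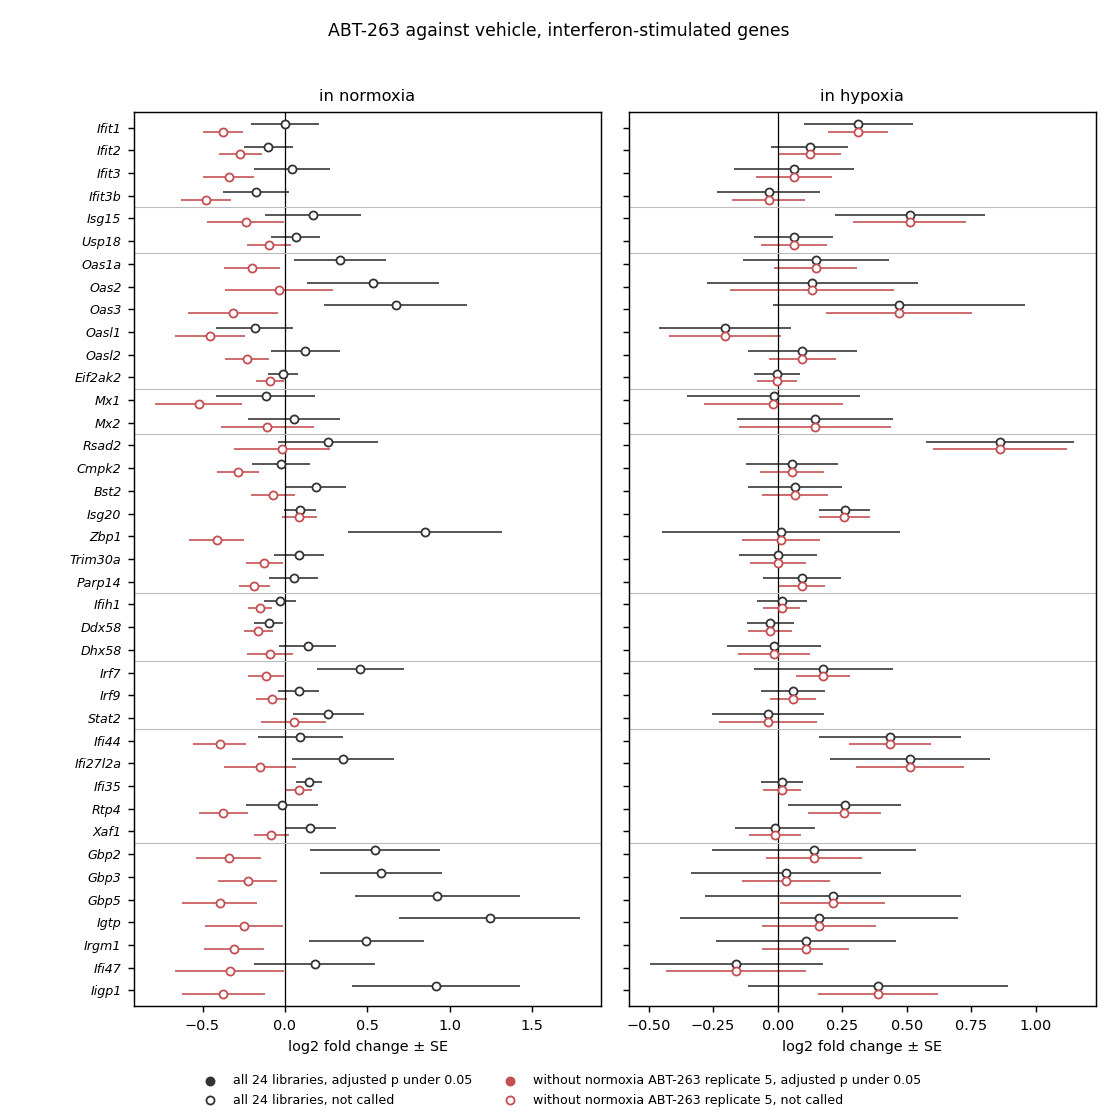
Log2 fold change of ABT-263 against vehicle with its SE for the 39 genes, in normoxia (left) and in hypoxia (right), with all 24 libraries (dark) and without normoxia ABT-263 replicate 5 (red). No point is filled, since 0 genes were called, and in normoxia Igtp moves from 1.24 to -0.25 once the library is left out.

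In hypoxia 0 of the 39 genes were called by edgeR (0% of tested genes in either direction). Of the 39, 2 had an unadjusted p under 0.05, beside 543 of all 16935 tested genes. DESeq2 and limma-voom also called 0, each with 2 genes at that unadjusted p. Those genes were Rsad2, with a log2 fold change of 0.86 (SE 0.29, interval 0.26 to 1.46, adjusted p = 1), and Isg20, with 0.26 (SE 0.10, adjusted p = 1). Isg15 had 0.51 (interval -0.09 to 1.11). Ifi27l2a ran from 75.4 to 134 CPM under vehicle (median 109) and from 89.0 to 241 under ABT-263 (median 149), a log2 fold change of 0.51 (SE 0.31), and in normoxia from 77.4 to 137 (median 88.7) and from 55.6 to 312 (median 92.4). After removal of the outlying library, 0 were called (0% of tested genes). Then 6 of the 39 had an unadjusted p under 0.05, beside 586 of all 17064 tested genes. In the same comparison 10 of 10 B cell markers had an unadjusted p under 0.05 and a median log2 fold change of -0.789, while 0 passed the adjustment. NK cell markers were negative for 10 of 10 (median -0.723), with 1 at an unadjusted p under 0.05 and 9 without the outlying library. Neutrophil markers were positive for 7 of 7 (median 0.446), with 4 at that p. The part of these cells in the values of the 39 genes was not tested.

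The interaction asks whether the response to hypoxia differed between drug and vehicle. By edgeR 0 of the 39 genes were called and 0 had an unadjusted p under 0.05, beside 625 of all 16935 tested genes. DESeq2 and limma-voom called 0 as well. No gene of the whole table was called (0% in either direction). Rsad2 had 0.60 (SE 0.42, interval -0.27 to 1.47), and Igtp had -1.08 (SE 0.77, interval -2.68 to 0.51). When the outlying library was left out, 0 were called (0% of tested genes). Then 10 of the 39 had an unadjusted p under 0.05, beside 695 of all 17064 tested genes. Of the 39, 37 were positive, beside 8938 of all tested genes (17 and 8630 with all libraries). The library left out was picked for its high levels of these genes, so its removal raises their interaction values. These counts are a description. The smallest p of the 39 was for Ifit1, with 0.69 (SE 0.17, unadjusted p = 0.000398, adjusted p = 0.968). The 2 hypoxia comparisons share no library, whereas each ABT-263 comparison shares its groups with both, so their values are not independent of each other.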

How the data were processed

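Poly(A) RNA of 24 whole-lung libraries was sequenced from a stranded kit, per the labels' protocols. The authors deposited expected counts per gene; Trimmomatic, STAR, RSEM and the build GRCm38 are named in the submitters' processing notes. The sources used here do not state tool versions, the annotation release, the strand setting or any filter. Of the deposited values 91.8% were whole, and all were rounded to whole numbers before testing.

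Groups came from the labels (6 libraries each). Genes were kept by edgeR's filterByExpr (minimum count 10), scaled by TMM and fitted over all 24 libraries with 1 mean per group (20 residual degrees of freedom). The main test was edgeR's robust quasi-likelihood test, with Benjamini-Hochberg adjustment over all 16935 genes and a threshold of 0.05. The test was also run on counts simulated with the means and dispersions of the fitted data, and its outcome is not given here. The SE of a log2 fold change is its size divided by the square root of F. Software was R 4.3.3, edgeR 4.0.16, limma 3.58.1 and DESeq2 1.42.0. Depth was 12643484 to 17295233 counts per library. Wilson intervals and floors cover counting error only.

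Alternatives were other size factors, no filter, DESeq2, limma-voom, a fit restricted to the pair of groups in question, and leaving out each library. Leaving out normoxia vehicle replicate 2 and normoxia ABT-263 replicate 5 together was added after seeing the data. Setting normoxia ABT-263 replicate 5 apart also followed from seeing that these genes were high in it. The 39 genes, the lists and the tests were chosen with earlier results of these data known. All 39 genes could be named; ranges in each group are given for the 6 genes with the smallest p in each comparison and for Irf7, Isg15 and Stat2, and at most 4 called genes are named per pathway list and comparison, beside Ifng and Ifnb1. 1 gene of the pathway lists is not reported here. Gene positions and exon lengths are from GENCODE M21.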

Additional observations from a re-analysis of the deposited data

Results flagged for a closer look

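Of 156 combinations of a gene and a group, 41 held 1 library whose gap to its nearest neighbour exceeded Dixon's critical value for 6 samples. Chance gives about 1 in 20. Of the 41, 31 were the highest value in normoxia ABT-263 replicate 5.

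In that library the levels in CPM were Ifit1 49.46, Ifit3 90.03, Ifit3b 17.66, Isg15 53.78, Oas1a 22.85, Oas2 46.93, Oas3 14.2, Oasl2 105.8, Mx1 11.92, Rsad2 25.94 and Cmpk2 63.23. Further levels in CPM there were Bst2 239.7, Zbp1 62.8, Trim30a 74.9, Parp14 140.6, Ifih1 54.53, Dhx58 17.72, Irf7 90.9, Irf9 106.8, Stat2 117.5, Ifi44 28.1, Ifi27l2a 312.3, Rtp4 55.51 and Xaf1 62.31. The interferon gamma GTPases stood at CPM values of Gbp2 307.8, Gbp3 187.6, Gbp5 73.48, Igtp 299.4, Irgm1 18.53, Ifi47 1.729 and Iigp1 289.4. NK cell markers summed to 590 CPM in the same library, against at most 90.6 CPM in the other 5; their part in these levels was not tested.

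Normoxia vehicle replicate 2 held the highest levels of its group, in CPM, for Cmpk2 43.24, Trim30a 52.81 and Xaf1 40.34. In hypoxia vehicle replicate 5, the highest level of its group in CPM was found for Oas3 1.822. In hypoxia vehicle replicate 3, the lowest level of its group in CPM was found for Dhx58 4.458. In hypoxia vehicle replicate 5, the lowest level of its group in CPM was found for Irgm1 3.644. In hypoxia ABT-263 replicate 6, the highest level of its group in CPM was found for Oas1a 11.97. In hypoxia ABT-263 replicate 4, the highest level of its group in CPM was found for Rsad2 106.4. In hypoxia ABT-263 replicate 2, the highest level of its group in CPM was found for Parp14 82.39 and Iigp1 181.3.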

How the results depend on the processing

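The fits differed in how many of the 39 genes passed the threshold in hypoxia. Under vehicle, the count higher was 2, but 1 without the filter on low counts, 7 with only the 2 groups compared and 6 with 2 libraries left out (normoxia vehicle 2, normoxia ABT-263 5). The count lower was 8, but 14 with only the 2 groups compared. Under ABT-263 the count higher was 2 and 16 with the 2 libraries left out, and the count lower was 10, but 6 without the filter and 6 with the 2 libraries left out. Leaving out each library in turn gave 1 to 6 higher and 5 to 14 lower under vehicle, and 1 to 16 higher and 6 to 12 lower under ABT-263. The extremes of 6 and 14, 16 and 6 came without normoxia ABT-263 replicate 5. Of 22 calls, 13 were kept in every alternative and 0 reversed. The counts of genes called for ABT-263 against vehicle and for the interaction were 0 in every setting run. No paired analysis was possible because the replicate numbers follow accession order and the labels give no number, animal or day that pairs libraries. Depth limits the ligand genes and Ifi47 most, and animals, batches and oxygen level are not given in the labels.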
